A study of Homo sapiens with 16 samples.

Results

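Ferroptosis regulators were examined as a group of 10 named genes, GPX4, ACSL4, SLC7A11, SLC3A2, AIFM2, LPCAT3, NCOA4, HSPB1, CISD1 and DHODH, out of 26258 genes in the expression table. They were chosen by name, with earlier results of these data known, and matched by their Entrez gene identifiers. All 10 passed the filter on low values, which kept 15019 genes with at least 1 CPM (a gene's reads scaled to the library total) in at least 2 libraries. Poly(A) RNA was sequenced from 2 human hepatocellular carcinoma cell lines, Huh7 and Hep3B, in 4 states each with 2 libraries per state, 16 libraries in all. The parental and DMSO libraries were labelled as free of Sorafenib, a multikinase inhibitor given in advanced liver cancer. The resistant lines were labelled as kept in 7 µM Sorafenib, so a resistant state and the presence of the drug cannot be told apart. IR stands for a line selected in rising concentrations and CR for a line selected in a constantly high one. Where 4 values are given for the 4 resistant lines, they stand in the order Huh7-IR and Huh7-CR, then Hep3B-IR and Hep3B-CR. Each resistant line is 1 selected culture, and the sources used here do not say how the DMSO cells were grown. The study's methods call the RNA replicates biological, without saying what separates them, and the labels do not say that the 2 libraries of a state came from separate cultures. The p-values measure the spread between these libraries.

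Ferroptosis is a form of cell death driven by iron-dependent peroxidation of polyunsaturated fatty acids in membrane phospholipids. Cells hold it back by importing cystine to make glutathione, which GPX4 uses to reduce lipid hydroperoxides, and by keeping ubiquinone in its reduced, radical-trapping form. Cells are made more prone to it by enzymes that place polyunsaturated fatty acids into membranes and by a larger pool of free iron. Sorafenib has been studied as an inhibitor of cystine import in liver cancer cells, which makes these genes of interest in resistant lines. Messenger RNA was measured here, not protein, enzyme activity or lipid peroxidation.

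The libraries held between 46613302 reads (Huh7-IR replicate 2) and 76860251 reads (Hep3B DMSO replicate 1) on genes. Replicates of Huh7 DMSO and of Huh7-IR were further apart than those of the other states, with SDs of their log2 differences over genes of 0.571 and 0.566 against 0.236 to 0.310. In parental Huh7 and Huh7 DMSO the difference between replicates followed the GC content of the transcripts, with Spearman correlations across genes of -0.53 and 0.51. The sum of the liver markers moved in the resistant and in the DMSO libraries, in opposite directions from parental cells. ALB was the largest part of that sum in every state, and single markers did not all follow it. SERPINA1 rose from a mean of 469 CPM in parental Hep3B to 1606 CPM in Hep3B-IR. FGB fell from 60.1 CPM in parental Hep3B to 31.3 CPM in Hep3B DMSO. The summed level of 9 hepatocyte markers was 5584 to 6173 CPM in parental Huh7, 13505 to 18124 CPM in Huh7 DMSO, 139 to 517 CPM in Huh7-IR and 1337 to 2621 CPM in Huh7-CR. In Hep3B it was 13338 to 15260 CPM in parental cells, 22732 to 26886 CPM in DMSO cells, 3194 to 8411 CPM in Hep3B-IR and 1198 to 1426 CPM in Hep3B-CR. The 4 fibroblast markers summed to 5.95 to 6.56 CPM in parental Huh7 and to 266 to 442 CPM in resistant Huh7, of which COL1A2 reached 405 CPM, while the mean of DCN was at most 1.58 CPM in any state. In Hep3B they summed to 4.17 to 5.99 CPM in parental, 12.4 to 14.5 CPM in DMSO and 12.8 to 71.0 CPM in resistant cells, and in Huh7 DMSO to 4.33 to 12.6 CPM. The endothelial list summed to at most 6.36 CPM in any library. Of the immune list CD3E did not exceed 0.0530 CPM, and the rise of its sum from at most 10.4 CPM in parental to at least 27.7 CPM in resistant libraries came from CD68. The immune sum was 5.12 to 12.1 CPM in Huh7 DMSO and 18.3 to 33.0 CPM in Hep3B DMSO, where it overlapped Hep3B-CR. The part of these shifts in the results below was not tested. In bulk RNA, fewer cells with a transcript and less of it per cell cannot be told apart.

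The 10 genes did not move as a block. SLC7A11 and SLC3A2, the partners of the cystine importer, were higher and ACSL4, which activates polyunsaturated fatty acids, was lower in every resistant library of both cell lines than in every library without Sorafenib. These 3 genes compare with 8.56% of the 15019 tested genes whose ranges were apart in this way, 5.35% higher and 3.2% lower. The other 7 genes had overlapping ranges. By the test of each resistant line against its parental line, 9 of the 10 genes were called in Huh7-IR (3 higher, 6 lower), beside 57.5% of all tested genes (36% higher, 21.5% lower). In Huh7-CR 6 were called (2 higher, 4 lower), beside 41.3% of all genes (24.5% higher, 16.8% lower). Hep3B-IR had 3 called genes (2 higher, 1 lower), beside 32% (18.3% higher, 13.7% lower). Hep3B-CR also had 3 (2 higher, 1 lower), beside 38.8% (23.6% higher, 15.2% lower). The share called among the 10 was thus above the background in Huh7 and near or below it in Hep3B. As the genes were chosen with earlier results of these data known, this comparison is a description and not a test. The median change of the 10 genes was -0.69, -0.36, 0.03 and -0.07 on the log2 scale in the 4 lines, beside medians over all genes of 0.19, 0.07, 0.06 and 0.11. A gene was called at a Benjamini-Hochberg adjusted p under 0.05 from limma, fitted on log2(CPM + 1) over all 16 libraries. Both resistant lines of a cell line share its 2 parental libraries as their controls.

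**Figure D1:**
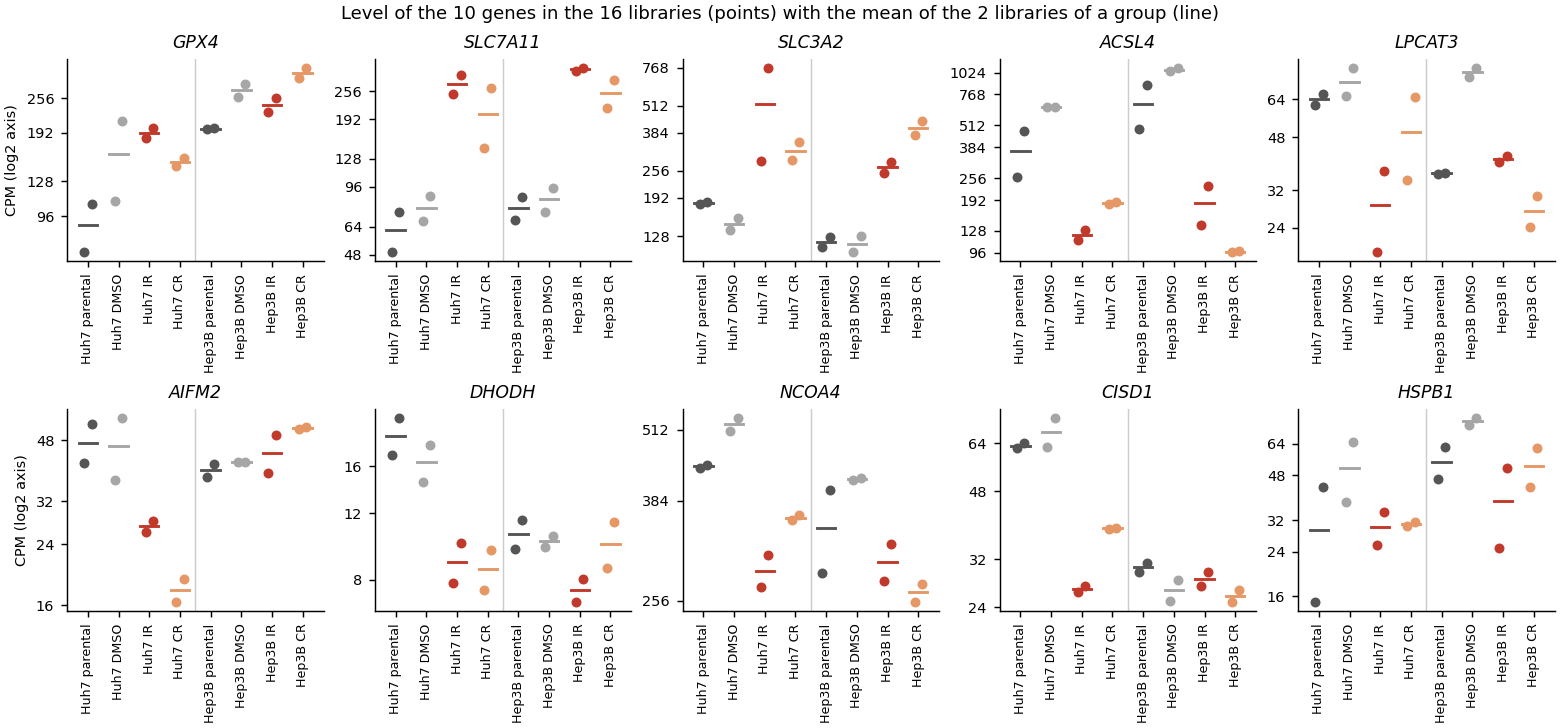
Level in CPM (log2 axis) of the 10 genes in the 16 libraries. Each point is 1 library, each line the mean of the 2 libraries of a state, with parental in dark grey, DMSO in light grey, IR in red and CR in orange. SLC7A11 lay between 49.3 and 95.0 CPM without Sorafenib and between 144 and 324 CPM with it, and ACSL4 lay between 260 and 1083 CPM without and between 97.0 and 231 CPM with it.

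SLC7A11, the light chain that carries cystine in and glutamate out, gave the most even response. It was at 49.3 and 74.0 CPM in parental Huh7, 87.3 and 67.6 CPM in Huh7 DMSO, 302 and 248 CPM in Huh7-IR and 263 and 144 CPM in Huh7-CR. In Hep3B it was at 68.2 and 86.8 CPM in parental cells, 74.6 and 95.0 CPM in DMSO cells, 316 and 324 CPM in Hep3B-IR and 216 and 286 CPM in Hep3B-CR. All 8 libraries without the drug formed a low group and all 8 with it a high group. The mean rose 4.47-fold, 3.30-fold, 4.13-fold and 3.24-fold in the 4 lines. On the log2 scale these changes were 2.16 ± 0.28 (SE, n = 2 against 2; adjusted p = 4.6e-05), 1.67 ± 0.28 (adjusted p = 0.00055), 2.04 ± 0.28 (adjusted p = 0.00020) and 1.68 ± 0.28 (adjusted p = 0.00063). The rise did not differ detectably between the cell lines, with a difference of 0.06 and a 95% interval of -0.69 to 0.80. Ordered by mean, the states ran from parental Huh7 (61.6 ± 17.5 CPM, SD, n = 2) through Huh7 DMSO, parental Hep3B and Hep3B DMSO (84.8 ± 14.4 CPM) to Huh7-CR (203 ± 84.5 CPM), Hep3B-CR, Huh7-IR and Hep3B-IR (320 ± 5.49 CPM). Within the first 4 and within the last 4 of these, neighbours differed by less than their spread except for Hep3B-IR, whose libraries lay just above those of Huh7-IR. SLC7A11 lies on chromosome 4 at 139085251 to 139163503 (GRCh37, minus strand), with the antisense transcript SLC7A11-AS1 overlapping it on the opposite strand. Whether strand was used in counting is not given in the sources used here, so reads of such antisense partners cannot be set apart.

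SLC3A2, the heavy chain that brings SLC7A11 and other light chains to the cell surface, rose with it. Parental Huh7 was at 184 and 180 CPM, Huh7 DMSO at 156 and 137 CPM, Huh7-IR at 762 and 284 CPM and Huh7-CR at 346 and 287 CPM. Parental Hep3B was at 114 and 126 CPM, Hep3B DMSO at 108 and 128 CPM, Hep3B-IR at 282 and 251 CPM and Hep3B-CR at 374 and 433 CPM. No library with Sorafenib reached down to any library without it. The change was 1.35 ± 0.32 in Huh7-IR (adjusted p = 0.0033), 1.14 ± 0.32 in Hep3B-IR (adjusted p = 0.017) and 1.73 ± 0.32 in Hep3B-CR (adjusted p = 0.0012), all on the log2 scale. In Huh7-CR it was 0.79 with a 95% interval of 0.09 to 1.48 and did not pass (adjusted p = 0.066). The library of 762 CPM set the size in Huh7-IR, where the change was 0.64 without replicate 1 (adjusted p = 0.0083) and 2.06 without replicate 2 (adjusted p = 3.0e-06). With Huh7-IR and parental Huh7 alone in the fit it did not pass (adjusted p = 0.086). The call in Hep3B-IR was lost when any of the 4 libraries compared was left out, with changes of 1.06 to 1.23 and adjusted p from 0.050 to 0.097. The gene lies on chromosome 11 at 62623476 to 62656352 (GRCh37, plus strand).

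The RefSeq promoter of SLC3A2 is shown because the gene rose together with SLC7A11, and that of AIFM2 because it carries the same 9 letters while the gene moved differently. Each runs from 250 bases before to 50 bases after the start of the gene in RefSeq on GRCh38.p14, that of SLC3A2 at chr11:62881449-62881748 (plus strand) and that of AIFM2 at chr10:70132776-70133075 (minus strand), 5′ to 3′ along the gene. Capitals mark matches to TGACNNNGC, the core of the antioxidant response element, and to TGATGNAA, a form of the amino acid response element, on either strand.
SLC3A2: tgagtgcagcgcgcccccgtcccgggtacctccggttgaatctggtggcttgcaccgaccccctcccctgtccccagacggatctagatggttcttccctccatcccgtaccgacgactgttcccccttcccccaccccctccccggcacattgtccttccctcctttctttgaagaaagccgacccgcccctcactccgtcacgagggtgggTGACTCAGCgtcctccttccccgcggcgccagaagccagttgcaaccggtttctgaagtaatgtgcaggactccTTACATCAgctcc
AIFM2: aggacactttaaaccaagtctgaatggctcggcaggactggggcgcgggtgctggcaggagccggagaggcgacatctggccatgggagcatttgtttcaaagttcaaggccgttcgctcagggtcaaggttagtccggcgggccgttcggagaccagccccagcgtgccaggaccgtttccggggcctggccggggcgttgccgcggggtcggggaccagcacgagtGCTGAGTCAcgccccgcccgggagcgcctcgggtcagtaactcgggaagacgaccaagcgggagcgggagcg
TGACTCAGC begins 37 bases before this RefSeq start of SLC3A2. GCTGAGTCA, the same letters on the other strand, begins 22 bases before that of AIFM2. Both hold TGACTCA, the letters of the AP-1 element, inside the match. TTACATCA, which matches TGATGNAA on the other strand, covers bases 37 to 44 after the start of SLC3A2. Of the 27305 promoters of this length, 13.6% held TGACNNNGC and 3.67% held TGATGNAA. RefSeq promoters were matched for 9 of the 10 genes, all but SLC7A11. Among these 9, TGACNNNGC occurred in SLC3A2, AIFM2 and HSPB1, and TGATGNAA in SLC3A2. GAANNTTC, the heat shock element, occurred in HSPB1 and in 6.87% of all promoters. ACGTG, the core of the hypoxia response element, occurred in GPX4, CISD1 and DHODH and in 21.6% of all promoters. These matches describe the letters and were not tested for binding.

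GPX4, the selenoenzyme that reduces lipid hydroperoxides, was raised in Huh7 when parental cells were the reference. Parental Huh7 was at 107 and 71.2 CPM, Huh7 DMSO at 109 and 212 CPM, Huh7-IR at 183 and 199 CPM and Huh7-CR at 146 and 155 CPM. The resistant libraries lay above both parental libraries and between the DMSO libraries. Parental Hep3B was at 197 and 200 CPM (199 ± 1.57, SD, n = 2), Hep3B DMSO at 259 and 287 CPM, Hep3B-IR at 257 and 227 CPM and Hep3B-CR at 328 and 303 CPM. The change was 1.13 ± 0.25 in Huh7-IR (adjusted p = 0.0022) and 0.78 ± 0.25 in Huh7-CR (adjusted p = 0.026). It was 0.28 in Hep3B-IR (95% interval -0.26 to 0.83) and 0.66 in Hep3B-CR (0.12 to 1.21), with adjusted p of 0.43 and 0.053. The GC content of its longest transcript was 62.5%, and the parental and DMSO replicates of Huh7 differed along GC content. With the GC trend of each library removed, the change was 0.50 in Huh7-IR (adjusted p = 0.0050) and 0.60 in Huh7-CR (adjusted p = 0.0025). In Huh7-CR the call was lost without parental replicate 2, the lower of the parental libraries (0.49, adjusted p = 0.23), and without either CR library (0.82 and 0.74, adjusted p = 0.082 and 0.11). GPX4 lies on chromosome 19 at 1103981 to 1106790 (GRCh37, plus strand).

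**Figure D2:**
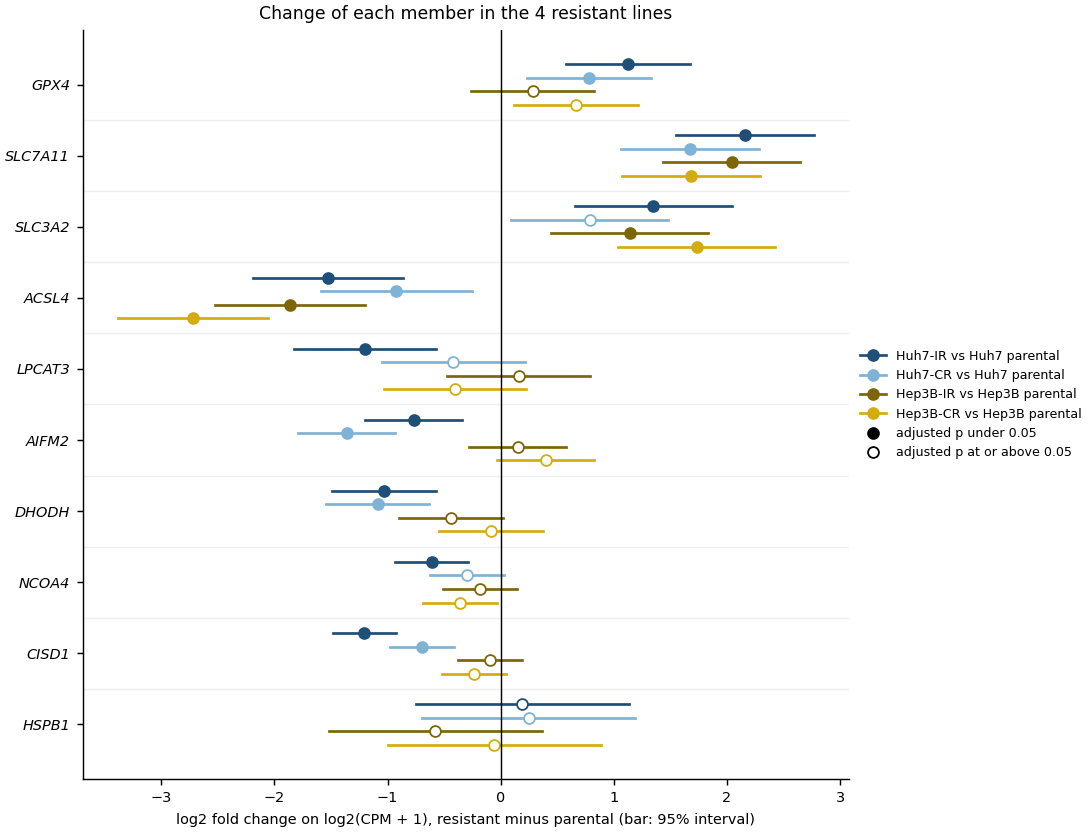
Log2 fold change of the 10 genes in each resistant line against its parental line on the log2(CPM + 1) scale, with 95% intervals from limma. Filled points passed an adjusted p of 0.05. SLC7A11 passed in all 4 lines at 1.67 to 2.16 and ACSL4 in all 4 at -2.72 to -0.92, while AIFM2, DHODH and CISD1 passed in Huh7-IR and Huh7-CR.

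ACSL4, which couples arachidonic and adrenic acid to coenzyme A and so supplies the lipids that are peroxidised, fell in all 4 resistant lines. It was at 260 and 476 CPM in parental Huh7, 648 and 652 CPM in Huh7 DMSO, 113 and 130 CPM in Huh7-IR and 188 and 183 CPM in Huh7-CR. In Hep3B it was at 485 and 868 CPM in parental cells, 1083 and 1043 CPM in DMSO cells, 138 and 231 CPM in Hep3B-IR and 97.0 and 98.2 CPM in Hep3B-CR. The highest resistant library of either cell line was below the lowest library without Sorafenib. Resistant means were 0.331, 0.504, 0.272 and 0.144 of the parental means in the 4 lines. The log2 changes were -1.53 ± 0.31 (SE; adjusted p = 0.0011), -0.92 ± 0.31 (adjusted p = 0.029), -1.86 ± 0.31 (adjusted p = 0.00067) and -2.72 ± 0.31 (adjusted p = 4.2e-05). The parental replicates differed widely in both cell lines, which bore most on Huh7-CR. There the change was -0.49 without parental replicate 2 (adjusted p = 0.29) and -0.94 and -0.90 without either CR library (adjusted p = 0.10 in both). In the other 3 lines the call held without any single library. Ordered by mean, Hep3B DMSO (1063 ± 28.0 CPM, SD, n = 2) was followed by parental Hep3B (677 ± 271 CPM), Huh7 DMSO (649.9 ± 2.45 CPM), parental Huh7 (368 ± 153 CPM), Huh7-CR (185 ± 3.55 CPM), Hep3B-IR (184 ± 65.8 CPM), Huh7-IR (122 ± 12.21 CPM) and Hep3B-CR (97.6 ± 0.815 CPM). The parental Hep3B libraries spanned those of Huh7 DMSO, and the Hep3B-IR libraries spanned those of Huh7-CR. ACSL4 lies on chromosome X at 108867473 to 108976632 (GRCh37, minus strand) and shares part of its span with KCNE5 on the same strand.

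LPCAT3, the acyltransferase that inserts the activated fatty acids into phospholipids, was called in Huh7-IR alone among the 4 lines. It was at 61.3 and 66.7 CPM in parental Huh7, 65.5 and 81.1 CPM in Huh7 DMSO, 19.9 and 37.2 CPM in Huh7-IR and 34.6 and 65.3 CPM in Huh7-CR. The Huh7-CR libraries were far apart, with replicate 2 inside the parental range. The change was -1.20 ± 0.29 in Huh7-IR (adjusted p = 0.0036) and -0.42 in Huh7-CR (95% interval -1.05 to 0.21; adjusted p = 0.27). It was -0.77 in Huh7-IR without IR replicate 1 (adjusted p = 0.043), and -0.87 in Huh7-CR without CR replicate 2 (adjusted p = 0.042). Parental Hep3B was at 36.1 and 36.6 CPM, Hep3B DMSO at 76.2 and 81.1 CPM, Hep3B-IR at 41.6 and 39.8 CPM and Hep3B-CR at 24.2 and 30.6 CPM. Hep3B DMSO thus stood apart from parental and resistant Hep3B alike. The changes against parental Hep3B were 0.16 in Hep3B-IR and -0.41 in Hep3B-CR, with 95% intervals of -0.47 to 0.79 and -1.03 to 0.22. LPCAT3, on chromosome 12 at 7085347 to 7125781 (GRCh37, minus strand), overlaps EMG1 and C1S on the opposite strand.

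AIFM2, also called FSP1, reduces ubiquinone at the plasma membrane independently of GPX4, and it fell in both resistant Huh7 lines. Parental Huh7 was at 53.4 and 41.2 CPM, Huh7 DMSO at 55.8 and 36.9 CPM, Huh7-IR at 26.1 and 28.1 CPM and Huh7-CR at 16.4 and 19.02 CPM. All 4 resistant Huh7 libraries lay below all 4 without the drug. Parental Hep3B was at 41.1 and 37.6 CPM, Hep3B DMSO at 41.6 and 41.6 CPM, Hep3B-IR at 49.7 and 38.6 CPM and Hep3B-CR at 51.8 and 52.6 CPM. The change was -0.77 ± 0.20 in Huh7-IR (adjusted p = 0.0052) and -1.36 ± 0.20 in Huh7-CR (adjusted p = 0.00019). In Hep3B-IR and Hep3B-CR the values were 0.15 (95% interval -0.28 to 0.58) and 0.40 (-0.03 to 0.83), neither of which passed. Without parental replicate 1 the change in Huh7-IR was -0.59 (adjusted p = 0.058). AIFM2 lies on chromosome 10 at 71857979 to 71892690 (GRCh37, minus strand) and overlaps MACROH2A2 on the opposite strand.

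DHODH, the mitochondrial enzyme of pyrimidine synthesis that passes electrons to ubiquinone, fell in both resistant Huh7 lines. Per length of all its GENCODE exons merged, it had the lowest level of the 10 genes in every state. Reads were counted over RefSeq exons, so this rank depends on the length used. It was at 21.5 and 17.1 CPM in parental Huh7, 18.2 and 14.6 CPM in Huh7 DMSO, 7.86 and 10.0 CPM in Huh7-IR and 9.598 and 7.51 CPM in Huh7-CR. In Hep3B it was at 11.5 and 9.65 CPM in parental cells, 9.78 and 10.5 CPM in DMSO cells, 7.00 and 8.02 CPM in Hep3B-IR and 11.4 and 8.59 CPM in Hep3B-CR. The resistant Huh7 libraries came down to the level that Hep3B had in every state. The change was -1.03 ± 0.21 in Huh7-IR (adjusted p = 0.0012) and -1.09 ± 0.21 in Huh7-CR (adjusted p = 0.0015). In Hep3B-IR it was -0.44 (95% interval -0.90 to 0.02; adjusted p = 0.13) and in Hep3B-CR -0.08 (-0.54 to 0.38). The gene lies on chromosome 16 at 72042487 to 72061563 (GRCh37, plus strand).

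NCOA4 is the receptor that delivers ferritin to autophagosomes and so frees stored iron. Parental Huh7 was at 439 and 445 CPM, Huh7 DMSO at 537 and 509 CPM, Huh7-IR at 308 and 271 CPM and Huh7-CR at 355 and 362 CPM. The 4 resistant libraries lay below all 4 others. Parental Hep3B was at 287 and 402 CPM, Hep3B DMSO at 418 and 420 CPM, Hep3B-IR at 277 and 323 CPM and Hep3B-CR at 274 and 255 CPM. The change was -0.61 ± 0.15 in Huh7-IR (adjusted p = 0.0040), and it did not pass in Huh7-CR (-0.30, adjusted p = 0.13), Hep3B-IR (-0.18, adjusted p = 0.40) or Hep3B-CR (-0.36, adjusted p = 0.077). Without parental replicate 1, the lower of the parental libraries, the change in Hep3B-CR was -0.60 (adjusted p = 0.012). NCOA4 lies on chromosome 10 at 51565199 to 51590734 (GRCh37, plus strand). Processed pseudogenes named after NCOA4, HSPB1 and CISD1 are annotated, and reads they share with these genes depend on the counting of unique hits.

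CISD1, or mitoNEET, an iron-sulphur protein of the outer mitochondrial membrane, had the smallest SE of the 10 genes and fell in both resistant Huh7 lines. It was at 63.9 and 62.1 CPM in parental Huh7, 74.5 and 62.6 CPM in Huh7 DMSO, 27.2 and 26.3 CPM in Huh7-IR and 38.6 and 38.4 CPM in Huh7-CR. The change was -1.20 ± 0.13 in Huh7-IR (adjusted p = 1.1e-05) and -0.70 ± 0.13 in Huh7-CR (adjusted p = 0.0011). In Hep3B all 8 libraries stayed between 24.8 and 31.4 CPM. The changes there were -0.10 in Hep3B-IR (95% interval -0.38 to 0.18) and -0.23 in Hep3B-CR (-0.51 to 0.05). The gene lies on chromosome 10 at 60028922 to 60049346 (GRCh37, plus strand).

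HSPB1, a small heat shock protein that steadies the actin cytoskeleton and has been linked to limited iron uptake, was not called in any of these comparisons. Its replicates were the least alike. Parental Huh7 was at 43.1 and 15.3 CPM, Huh7 DMSO at 37.82 and 64.7 CPM, Huh7-IR at 25.4 and 34.4 CPM and Huh7-CR at 30.2 and 31.5 CPM. Parental Hep3B was at 62.0 and 46.5 CPM, Hep3B DMSO at 80.9 and 76.0 CPM, Hep3B-IR at 51.1 and 24.8 CPM and Hep3B-CR at 61.3 and 43.4 CPM. The changes were 0.19, 0.25, -0.58 and -0.06 in the 4 lines, each with an SE of 0.43. The 95% intervals were, for example, -0.75 to 1.13 in Huh7-IR and -1.52 to 0.36 in Hep3B-IR. Changes within those bounds were not excluded by these libraries. The transcript has a GC content of 64.3%, the highest of the 10 genes. The gene lies on chromosome 7 at 75931990 to 75933612 (GRCh37, plus strand).

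Levels can be compared between genes only per length. The length used here is that of all GENCODE exons of a gene merged, while reads were counted over RefSeq exons. Where these lengths differ, the level per length of a gene and its rank shift, so the ranks below are approximate. Per kilobase of merged exon length and on the CPM scale, NCOA4 was the most abundant of the 10 in parental Huh7 at 111 CPM per kilobase, followed by GPX4 at 48.3, ACSL4 at 36.9 and SLC3A2 at 28.5. SLC7A11 stood at 6.39 and DHODH at 2.79 CPM per kilobase. In parental Hep3B GPX4 came first at 108 CPM per kilobase, followed by NCOA4 at 86.3, ACSL4 at 67.9, HSPB1 at 33.4 and SLC3A2 at 18.8, with SLC7A11 at 8.03. In Hep3B-CR GPX4 and NCOA4 still came first, at 171 and 66.4 CPM per kilobase, followed by SLC3A2 at 63.1, HSPB1 at 32.2 and SLC7A11 at 26.0, while ACSL4 stood at 9.79. SLC3A2 was above SLC7A11 per length in all 8 states, at 28.5 against 6.39 CPM per kilobase in parental Huh7 and at 41.7 against 33.2 in Hep3B-IR, where the pair was closest.

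The DMSO libraries test whether the same genes move without the drug. By limma 0 of the 10 were called in Huh7 DMSO against parental Huh7, beside 5.18% of all genes, and 0 in Hep3B DMSO against parental Hep3B, beside 1.64%. At an unadjusted p under 0.05 there were 2 in each cell line, GPX4 and ACSL4 in Huh7 and LPCAT3 and ACSL4 in Hep3B. edgeR called 0 in both and DESeq2 called 1 in each, GPX4 in Huh7 and LPCAT3 in Hep3B. ACSL4 was above both parental libraries in all 4 DMSO libraries, at 0.88 in Huh7 (95% interval 0.22 to 1.55) and 0.71 in Hep3B (0.05 to 1.37), with adjusted p of 0.11 and 0.30. LPCAT3 was at 1.09 in Hep3B DMSO (0.46 to 1.72; adjusted p = 0.084), and GPX4 at 0.79 in Huh7 DMSO (0.25 to 1.34; adjusted p = 0.084). The same DMSO libraries had hepatocyte marker sums above those of both parental libraries in each cell line, at 13505 CPM or more in Huh7 and 22732 CPM or more in Hep3B, and their part in these values was not tested. GPX4 in Huh7 DMSO passed without DMSO replicate 1, the lower of the DMSO libraries (1.27, adjusted p = 0.0012).

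The choice of parental or DMSO cells as reference changed calls for GPX4, LPCAT3, NCOA4 and SLC3A2. Against the DMSO libraries GPX4 was at 0.33 in Huh7-IR (adjusted p = 0.28), -0.01 in Huh7-CR (adjusted p = 0.97), -0.17 in Hep3B-IR and 0.21 in Hep3B-CR, so that it passed in none of the 4 lines. LPCAT3, in contrast, was at -0.93 in Hep3B-IR (adjusted p = 0.023) and -1.498 in Hep3B-CR (adjusted p = 0.0015) against Hep3B DMSO, beside 0.16 and -0.41 against parental Hep3B. ACSL4 was lower still, at -2.41, -1.81, -2.57 and -3.43 in the 4 lines, all of which passed. NCOA4 passed in all 4 lines against DMSO, at -0.85, -0.54, -0.49 and -0.66, whereas against parental cells it passed in Huh7-IR alone. SLC7A11 and SLC3A2 also passed in all 4, SLC7A11 at 1.33 to 1.91 and SLC3A2 at 1.11 to 1.77. For SLC3A2 in Huh7-CR the adjusted p was 0.015 against DMSO and 0.066 against parental cells. AIFM2, CISD1 and DHODH passed in both resistant Huh7 lines against either reference and in neither resistant Hep3B line. Against DMSO 8, 7, 5 and 5 genes were called in the 4 lines. The share of all tested genes called against DMSO is not given here, so these counts cannot be set against a background.

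**Figure D3:**
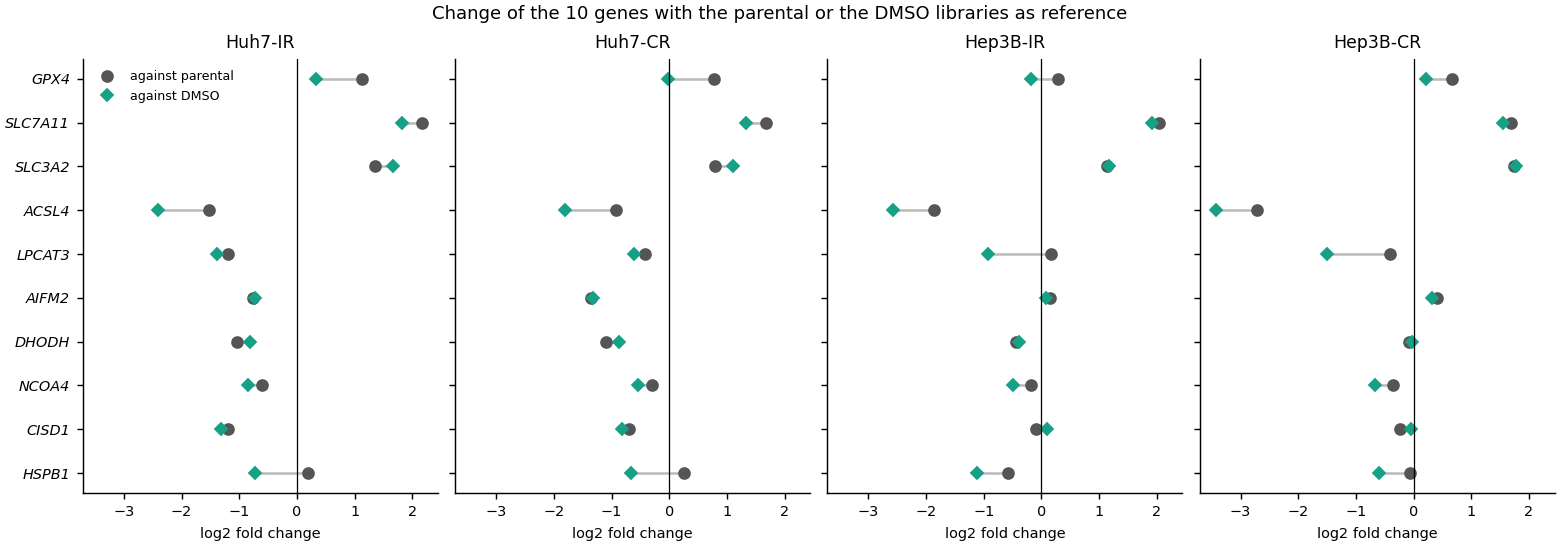
Log2 fold change of the 10 genes in each resistant line against parental libraries (grey circles) and against DMSO libraries of the same cell line (green diamonds), on 1 shared axis. GPX4 moved from 0.78 to -0.01 in Huh7-CR, LPCAT3 from 0.16 to -0.93 in Hep3B-IR, and ACSL4 was lower against DMSO in all 4 panels.

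The mean change of the IR and CR lines in Huh7 was set against that in Hep3B by a contrast of the differences. It called 4 of the 10 genes (1 higher in Huh7, 3 lower), beside 31.6% of all genes (17.4% higher, 14.2% lower). AIFM2 differed most clearly, with a mean change of -1.07 in Huh7 and 0.28 in Hep3B and a difference of -1.34 ± 0.24 (SE; adjusted p = 0.0014). CISD1 changed by -0.95 in Huh7 and -0.16 in Hep3B, a difference of -0.78 ± 0.16 (adjusted p = 0.0028). Both calls held without any single library. DHODH changed by -1.06 and -0.26, a difference of -0.80 ± 0.26 (adjusted p = 0.033). ACSL4 fell more in Hep3B, by 2.29 against 1.22 on the log2 scale, a difference of 1.07 ± 0.37 (adjusted p = 0.047). The calls for DHODH and ACSL4 depended on single libraries. For DHODH 6 of the 12 leave-out fits lost the call, those without Huh7 parental replicate 1 (-0.64, adjusted p = 0.15), Huh7-CR replicate 2, either Hep3B parental library, Hep3B-IR replicate 2 or Hep3B-CR replicate 1. For ACSL4 9 of 12 lost it, with the smallest differences without Huh7 parental replicate 1 (0.63, adjusted p = 0.25) and without Hep3B parental replicate 2 (0.65, adjusted p = 0.25). Against DMSO the differences were -1.21 for AIFM2 (adjusted p = 0.0023) and -1.09 for CISD1 (adjusted p = 0.00028), both of which passed. They were -0.63 for DHODH and 0.89 for ACSL4, with adjusted p of 0.081 and 0.086. GPX4, SLC7A11, SLC3A2, LPCAT3, NCOA4 and HSPB1 did not pass, with differences from -0.69 to 0.54. SLC3A2 passed without Huh7-IR replicate 1 (-0.73, adjusted p = 0.0084), and LPCAT3 passed without Huh7-IR replicate 2 or Huh7-CR replicate 2 (-0.90 and -0.91, adjusted p = 0.036 and 0.044).

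The parental lines differed before any selection. Parental Huh7 against parental Hep3B gave 5 called genes (3 higher in Huh7, 2 lower), beside 50.3% of all genes (22.5% higher, 27.8% lower). CISD1 was 2.07-fold higher in Huh7 (1.02 ± 0.13 on the log2 scale; adjusted p = 3.6e-05), DHODH 1.83-fold (0.81 ± 0.21; adjusted p = 0.0068) and LPCAT3 1.76-fold (0.80 ± 0.29; adjusted p = 0.036). GPX4 was lower in Huh7, at 0.448 of the Hep3B mean (-1.18 ± 0.25; adjusted p = 0.0019), and so was ACSL4, at 0.543 (-0.88 ± 0.31; adjusted p = 0.029). Without Huh7 parental replicate 1 or Hep3B parental replicate 2 ACSL4 gave -0.45 and -0.46 (adjusted p = 0.30 and 0.29), and DHODH gave 0.65 and 0.69 (adjusted p = 0.066 and 0.059). LPCAT3 lost its call without any of the 4 libraries, at 0.74 to 0.86 (adjusted p 0.088 to 0.14). HSPB1 passed without Huh7 parental replicate 1 (-1.75, adjusted p = 0.0058), and NCOA4 passed without Hep3B parental replicate 2 (0.62, adjusted p = 0.0063). In the resistant libraries CISD1 lay at 26.3 to 38.6 CPM in Huh7 and at 24.8 to 29.6 CPM in Hep3B.

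Between the 2 regimens CISD1 was the 1 gene called, with a lower level in Huh7-IR than in Huh7-CR (-0.51 ± 0.13; adjusted p = 0.022), beside 16% of all genes. That call was lost without either Huh7-CR library (adjusted p = 0.098 and 0.11), with the difference at -0.50 and -0.51. SLC3A2 passed without Huh7-IR replicate 2 (1.27, adjusted p = 0.00062), and LPCAT3 passed without Huh7-IR replicate 2 or Huh7-CR replicate 1 (-1.21 and -1.23, adjusted p = 0.013 and 0.034). Between Hep3B-IR and Hep3B-CR limma and edgeR called 0 of the 10, beside 13.7% of all genes by limma. ACSL4 had an unadjusted p under 0.05 there, at 0.86 (95% interval 0.20 to 1.53; adjusted p = 0.082), and was the 1 gene called by DESeq2.

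Other genes of the pathway were read from 7 lists with 102 genes, of which 92 were tested. The 10 untested genes were under the filter and included 6 lipoxygenases, of which ALOX15B reached 1.52 CPM in 1 library. Of these, 24, 17, 21 and 27 were higher and 31, 31, 11 and 16 lower in the 4 lines, which made 59.8%, 52.2%, 34.8% and 46.7% called. These shares lie close to or somewhat above those of all genes given above. The lists were also chosen with earlier results of these data known, so such comparisons describe them and do not test them.

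**Figure D4:**
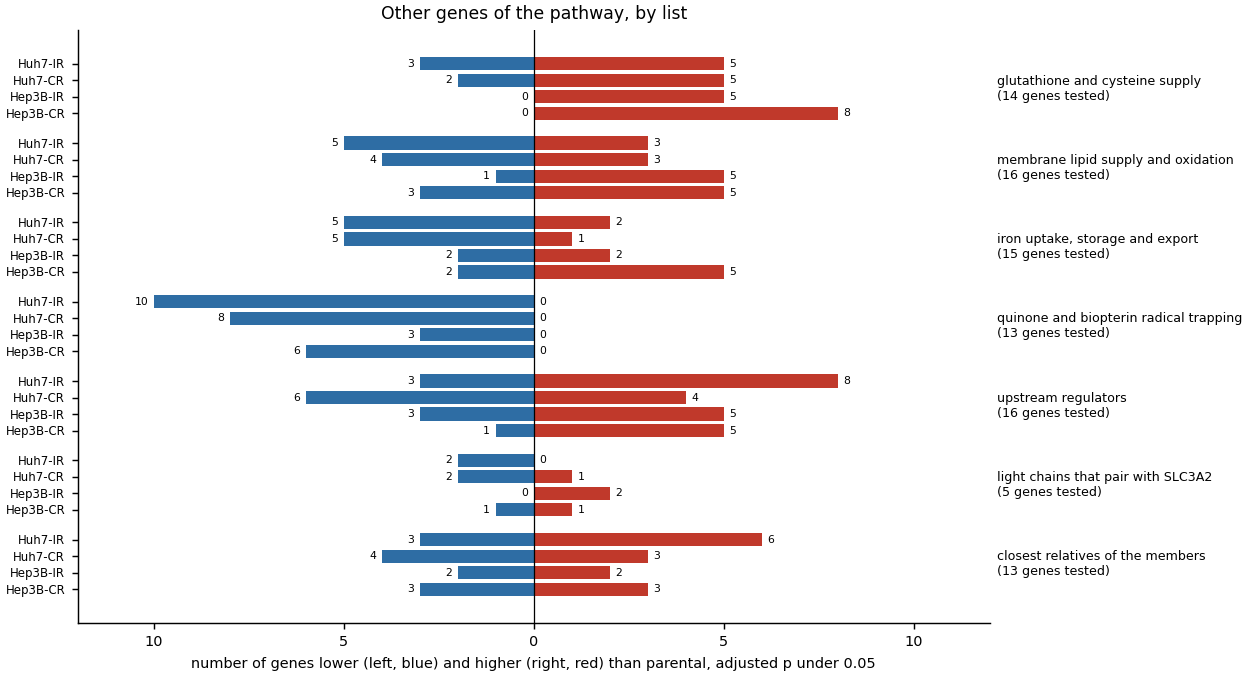
Number of genes in 7 lists that were higher (red, right) or lower (blue, left) than in parental cells at an adjusted p under 0.05, for each resistant line. In the list of quinone and biopterin radical trapping 0 genes were higher in any line and 10, 8, 3 and 6 of 13 were lower. Of all genes 21.5%, 16.8%, 13.7% and 15.2% were lower.

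Of 14 genes of glutathione and cysteine supply 5, 5, 5 and 8 were higher and 3, 2, 0 and 0 lower in the 4 lines, beside 36%, 24.5%, 18.3% and 23.6% of all genes higher. Their median changes were 0.24, 0.19, 0.31 and 0.72, beside the medians over all genes of 0.19, 0.07, 0.06 and 0.11. CTH, which makes cysteine by transsulphuration, went from 8.77 ± 0.492 CPM (SD, n = 2) in parental Huh7 to 67.1 ± 16.9 CPM in Huh7-IR and from 5.65 ± 0.526 CPM in parental Hep3B to 59.3 ± 3.90 CPM in Hep3B-IR. CHAC1, which breaks glutathione down, rose by 3.51, 2.90, 1.49 and 1.97 on the log2 scale in the 4 lines. The amino acid carriers SLC1A5, at 1.15 to 1.42, and SLC38A1, at 0.41 to 0.96, were also higher in all 4. GCLM, the modifier subunit of the enzyme that starts glutathione synthesis, went the other way in Huh7, from 148 ± 18.7 CPM to 39.4 ± 0.616 CPM in Huh7-IR and 31.6 ± 1.77 CPM in Huh7-CR (adjusted p = 3.7e-05 and 2.1e-05). In parental Hep3B GCLM was at 30.2 ± 1.04 CPM and did not pass in either resistant line. TXNRD1, a thioredoxin reductase, passed in Hep3B-CR (0.67, adjusted p = 0.033).

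Among 16 tested genes of membrane lipid supply and oxidation, 3, 3, 5 and 5 were higher and 5, 4, 1 and 3 lower. That made 50%, 43.8%, 37.5% and 50% called, beside 57.5%, 41.3%, 32% and 38.8% of all genes. ACSL5, a relative of ACSL4, rose where ACSL4 fell, from 0.338 ± 0.345 CPM in parental Huh7 to 21.2 ± 5.14 CPM in Huh7-IR and 28.3 ± 0.573 CPM in Huh7-CR, and from 0.330 ± 0.0103 CPM in parental Hep3B to 12.7 ± 4.91 CPM in Hep3B-IR and 8.94 ± 2.63 CPM in Hep3B-CR. ACSL6 fell in Huh7 from 21.1 ± 6.10 CPM to 0.240 ± 0.0359 CPM in Huh7-IR and 0.211 ± 0.0354 CPM in Huh7-CR. ACSL3, which activates monounsaturated fatty acids, was lower in Huh7-IR (-0.92, adjusted p = 0.036) and Hep3B-CR (-1.26, adjusted p = 0.012). SAT1, which acetylates spermidine and spermine, was higher in all 4 lines at 1.22 to 2.69. PEBP1, a partner of lipoxygenases, was lower in all 4 at -1.09 to -0.47.

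For iron uptake, storage and export, 2, 1, 2 and 5 of 15 genes were higher and 5, 5, 2 and 2 lower. The share called was 46.7%, 40%, 26.7% and 46.7%, beside 57.5%, 41.3%, 32% and 38.8% of all genes. It was thus above the background in Hep3B-CR alone. TFRC, the transferrin receptor, fell in all 4 lines, from 1057 ± 34.0 CPM in parental Huh7 to 563 ± 29.1 CPM in Huh7-IR and from 1059 ± 153 CPM in parental Hep3B to 624 ± 25.1 CPM in Hep3B-CR. IREB2, an iron-sensing regulator of TFRC and ferritin transcripts, fell in Huh7-IR, Huh7-CR and Hep3B-CR (-1.49, -1.29 and -0.84). STEAP3, a ferrireductase, rose in the same 3 lines (1.08, 0.80 and 0.85). HMOX1, haem oxygenase, rose in both Hep3B lines (0.99 and 0.79) and fell in Huh7-CR (-1.01). Of the ferritin chains, FTL fell in Hep3B-IR (-1.06, adjusted p = 0.0060) and FTH1 rose in Hep3B-CR (0.97, adjusted p = 0.0062), while neither passed in Huh7.

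Quinone and biopterin radical trapping, the arm of AIFM2 and DHODH, had no gene called higher in any resistant line. Of its 13 genes 10, 8, 3 and 6 were lower in the 4 lines, beside 21.5%, 16.8%, 13.7% and 15.2% of all genes lower. The median changes were -1.06, -0.60, -0.30 and -0.58, beside medians over all genes of 0.19, 0.07, 0.06 and 0.11. COQ8A, needed for ubiquinone synthesis, fell in all 4 lines, from 72.6 ± 8.54 CPM in parental Huh7 to 12.4 ± 3.55 CPM in Huh7-CR and from 37.3 ± 6.37 CPM in parental Hep3B to 12.9 ± 0.618 CPM in Hep3B-IR. COQ2 and PDSS1, enzymes of ubiquinone synthesis, were at -1.06 and -1.19 in Huh7-IR and at -0.58 and -0.71 in Hep3B-CR, all called. STARD7, a lipid carrier linked to ubiquinone transport, was lower in both Huh7 lines (-1.19 and -0.46), and QDPR in Huh7-IR (-0.41, adjusted p = 0.039). NQO1, another quinone reductase, was singled out after its values were seen. It was at 279 ± 57.2 CPM in parental Huh7, 725 ± 71.6 CPM in Huh7 DMSO, 33.0 ± 10.1 CPM in Huh7-IR and 53.9 ± 7.10 CPM in Huh7-CR, against 28.6 ± 17.7 CPM in parental Hep3B. Values of NQO1 in the other Hep3B states are not given here, so these values do not show whether it moved in Hep3B.

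Of 16 upstream regulators 8, 4, 5 and 5 were higher and 3, 6, 3 and 1 lower. Called shares were 68.8%, 62.5%, 50% and 37.5%, beside 57.5%, 41.3%, 32% and 38.8% of all genes. ATF4, the transcription factor of the amino acid response, was higher in all 4 lines at 0.82 to 1.39. CDKN1A, an inhibitor of cyclin-dependent kinases, went from 1.74 ± 0.999 CPM in parental Huh7 to 44.7 ± 1.49 CPM in Huh7-IR. In Hep3B it went from 1.11 ± 0.365 CPM in parental cells to 248 ± 71.7 CPM in Hep3B-IR. CARS1, the cysteinyl-tRNA synthetase, was higher at 0.61 to 1.82 and VDAC3, a mitochondrial pore protein, lower at -1.49 to -0.71 in all 4. NEDD4L, a ubiquitin ligase, fell in both Huh7 lines (-1.01 and -1.29), and OTUB1, a deubiquitylase that steadies the SLC7A11 protein, was lower in Huh7-CR (-0.44, adjusted p = 0.045) and Hep3B-IR (-0.78, adjusted p = 0.0032).

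The other light chains that pair with SLC3A2 did not follow SLC7A11 across both cell lines. Of 5 tested, 0, 1, 2 and 1 were higher and 2, 2, 0 and 1 lower. This made 40%, 60%, 40% and 40% called, beside 57.5%, 41.3%, 32% and 38.8% of all genes. SLC7A5, a carrier of leucine and other large neutral amino acids, rose in Hep3B from 135 ± 8.59 CPM to 340.2 ± 103 CPM in Hep3B-IR and 375 ± 7.996 CPM in Hep3B-CR (adjusted p = 0.0052 and 0.0021). In Huh7 it was at 268 ± 50.9 CPM in parental cells, 357 ± 132 CPM in Huh7-IR and 272 ± 66.5 CPM in Huh7-CR and did not pass. SLC7A7 rose in Huh7-CR (2.23, adjusted p = 0.00069) and Hep3B-IR (1.46, adjusted p = 0.012), and SLC7A6 fell in Hep3B-CR (-0.48, adjusted p = 0.033). SLC7A8 and SLC7A10, which fell in both Huh7 lines, had means of at most 1.41 CPM in parental cells.

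Of 13 tested relatives of the 10 genes, 6, 3, 2 and 3 were higher and 3, 4, 2 and 3 lower. Their called share was 69.2%, 53.8%, 30.8% and 46.2%, beside 57.5%, 41.3%, 32% and 38.8% of all genes. AIFM1, the mitochondrial relative of AIFM2, fell in all 4 lines, Hep3B included (-1.30, -0.88, -0.79 and -0.97). Of the other glutathione peroxidases, GPX8, of the endoplasmic reticulum, went from 1.69 ± 0.868 CPM in parental Huh7 to 224 ± 18.2 CPM in Huh7-IR, and GPX2 went from 97.0 ± 0.530 CPM to 0.164 ± 0.0496 CPM. LPCAT4 was higher in Huh7-IR, Hep3B-IR and Hep3B-CR (1.58, 1.47 and 1.62), and HSPB8 was lower in both Hep3B lines (-0.9997 and -0.68).

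Likeness was measured by Pearson correlation over the 16 libraries, with the mean of each cell line removed, for the 3 genes whose state means spanned most. ACSL4 was most like NAT8 (0.979), H2BC15 (0.971) and SERPINA7 (0.965). SLC7A11 was most like CTH (0.963), XIAP (0.963) and LINC00630 (0.959), and SLC3A2 was most like KIF26B (0.971), COA8 (0.970) and TBRG1 (0.967). Among the 10 genes, SLC7A11 and SLC3A2 correlated at 0.878 and ACSL4 and NCOA4 at 0.895, whereas ACSL4 and SLC3A2 correlated at -0.904. AIFM2 correlated with DHODH at 0.779 and with ACSL4 at 0.160. These values describe libraries that fall into a group with and a group without Sorafenib, which every such gene shares.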

How the data were processed

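RNA of 16 libraries from Huh7 and Hep3B cells, 2 for each of 8 states, was read from 1 table of CPM values for 26258 genes, of which 26111 had a symbol. The CPM values were made by the authors before they were deposited: reads were aligned with STAR to hg19, unique hits were counted over RefSeq exons with QuasR, and counts were scaled to the library total. The study's methods speak of biological triplicates, while the labels list 2 libraries per state. No version of STAR is given in the sources used here.

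All values of each library were whole multiples of 1 read within 0.05 reads, so reads could be recovered for edgeR and DESeq2. A count of 3 reads, the floor, was about 0.04 to 0.06 CPM. Groups were taken from the labels. Log2(CPM + 1) was fitted with limma 3.58.1 (R 4.3.3, trended variance) as 1 mean per state over all 16 libraries, on genes that reached 1 CPM in 2 or more libraries, with Benjamini-Hochberg adjustment over all 15019 genes and a threshold of 0.05. All limma tests were two-sided. Alternatives were pseudocounts of 0.25 and 4 CPM, a filter of 5 CPM or none, TMM factors, quantile normalization, edgeR 4.0.16 (quasi-likelihood) and DESeq2 1.42.0 on recovered reads, the replicate number as a block, removal of each library's GC trend, the compared states alone, DMSO as reference, each library left out, and the threshold of the study's methods (unadjusted p under 0.05 and a log2 change of at least 0.58). GC content was known for 96.2% of tested genes. The tests were checked on simulated data with the same spread for all genes and libraries, no GC trend and changes set in Huh7-IR alone. That check does not cover the wider replicate differences of Huh7 DMSO and Huh7-IR or the GC trends between replicates.

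The 10 genes and the lists were chosen with earlier results of these data known. All 10 are named. Other pathway genes are named where called in 1 direction in all 4 resistant lines against parental cells, or where they had the highest or lowest change among the called genes of their list in a comparison. SLC7A5 is always named. A gene that this rule names is not reported here. Genes most alike are the 3 with the highest correlation. Coordinates of genes are from GENCODE on GRCh37, and promoters from RefSeq on GRCh38.p14.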

Additional observations from a re-analysis of the deposited data

Results flagged for a closer look

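The mean change of the resistant lines differed between Huh7 and Hep3B for 4 of the 10 genes by limma's test of the difference itself, on the log2(CPM + 1) scale with 2 libraries per state. AIFM2 gave -1.34 (95% interval -1.87 to -0.82; adjusted p = 0.0014), with all 4 resistant Huh7 libraries below both parental Huh7 libraries. CISD1 gave -0.78 (-1.13 to -0.44; adjusted p = 0.0028) and DHODH -0.80 (-1.36 to -0.24; adjusted p = 0.033). ACSL4 gave 1.07 (0.25 to 1.88; adjusted p = 0.047), the smaller fall being in Huh7. AIFM2 and CISD1 passed in 24 of 24 alternatives, DHODH in 16 and ACSL4 in 8. The summed hepatocyte markers fell and the summed fibroblast markers rose in the resistant libraries of both cell lines. Their part in these differences was not tested.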

How the results depend on the processing

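Over all comparisons and alternatives, 1483 results for single genes kept their direction and their side of the threshold, 41 passed only under the alternative, 56 were lost and 50 turned direction. Where no cause is named, the cause was not tested. The number of the 10 genes called moved by over 1.5 times as follows. The share of all genes called under the same alternative is not given beside these counts. They therefore do not show whether the 10 genes moved more than all genes did. Hep3B-IR gave 5 with DMSO as reference. Hep3B-CR gave 5 by DESeq2, 5 with the compared states alone and 5 with DMSO as reference. Huh7 DMSO gave 1 by DESeq2, 2 by the threshold of the methods and 0 to 1 with a library left out. Hep3B DMSO gave 1 by DESeq2 and 2 by that threshold. Huh7-IR against Huh7-CR gave 2 by DESeq2, 2 by that threshold, 0 with the compared states alone and 0 to 3 with a library left out. Hep3B-IR against Hep3B-CR gave 1 by DESeq2 and 1 by that threshold. The parental lines gave 3 without a filter and 3 to 4 with a library left out. The difference between cell lines gave 2 without a filter, 2 with DMSO as reference and 2 to 4 with a library left out.

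With replicate number as a block, counts were 9, 6, 3 and 3 in the 4 resistant lines, 0 in Huh7 DMSO, 1 in Hep3B DMSO (LPCAT3), 2 in Huh7-IR against Huh7-CR (CISD1, LPCAT3), 1 in Hep3B-IR against Hep3B-CR (ACSL4), 5 between parental lines and 4 for the difference between cell lines. The share of all genes called with this block is not given here, so these counts cannot be set against a background. Deviations of same-numbered libraries correlated at -0.22 to 0.44 over 28 pairs of states (median 0.07), with 13 pairs over 0.1. No label says what a number marks and most pairs were not over 0.1, so the libraries were not treated as paired.

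These log2 values turned direction. HSPB1 in Huh7-IR was -0.046 with quantile normalization, -0.14 by edgeR, -0.15 by DESeq2, -0.49 with the GC trend removed and -0.72 against DMSO. Against DMSO, Huh7-CR gave -0.014 for GPX4 and -0.67 for HSPB1, and Hep3B-IR gave -0.17 for GPX4, -0.93 for LPCAT3 and 0.10 for CISD1. In Hep3B DMSO, SLC3A2 was 0.016 with quantile normalization and AIFM2 -0.12 with the GC trend removed. Between Huh7-IR and Huh7-CR, GPX4 was -0.094 with the GC trend removed, and DHODH was -0.033 with TMM, -0.11 with quantile normalization, -0.034 by edgeR, -0.063 by DESeq2 and -0.076 with the GC trend removed. The difference between cell lines was -0.0012 with TMM and -0.16 against DMSO for SLC7A11, and 0.22 against DMSO for LPCAT3.

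With 1 library left out, values ran from -0.53 to 0.91 (HSPB1, Huh7-IR), -0.87 to 0.030 (LPCAT3, Huh7-CR), -0.47 to 0.97 (HSPB1, Huh7-CR), -0.026 to 0.33 (AIFM2, Hep3B-IR), -0.42 to 0.059 (NCOA4, Hep3B-IR), -0.30 to 0.19 (HSPB1, Hep3B-CR) and -0.27 to 0.10 (DHODH, Hep3B-CR). In Huh7 DMSO they ran from -0.34 to 0.25 for AIFM2 and -0.0088 to 0.24 for CISD1, and in Hep3B DMSO from -0.043 to 0.30 for SLC7A11, -0.15 to 0.085 for SLC3A2 and -0.17 to 0.063 for DHODH. Between Huh7-IR and Huh7-CR they ran from -0.15 to 1.27 for SLC3A2, -0.27 to 0.15 for HSPB1 and -0.10 to 0.21 for DHODH. For the difference between cell lines they ran from -0.23 to 0.34 for SLC7A11, -0.43 to 0.056 for NCOA4 and -0.18 to 1.26 for HSPB1. A state left with 1 library was assumed to vary like the others.

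Over all genes, Huh7 DMSO gave 778 calls, 2178 by DESeq2, 1188 with the GC trend removed and 0 with the compared states alone. Hep3B DMSO gave 247, 647 by DESeq2, 77 by edgeR, 147 with the filter of 5 CPM and 2 with the compared states alone. Huh7-IR against Huh7-CR gave 2407 and 0 with the compared states alone. The median over all genes in Huh7-IR went from 0.19 to 0.04 with TMM, and the share of calls that were higher from 62.5% to 51.9% with TMM and 49.3% with the GC trend removed, while 9 of the 10 genes were called in both. That share went from 59.2% to 47.4% in Huh7-CR, 57.2% to 47.0% in Hep3B-IR and 60.9% to 49.6% in Hep3B-CR with the GC trend removed. It went from 69.4% to 51.3% in Huh7 DMSO with the GC trend removed, from 67.6% to 46.8% in Hep3B DMSO by edgeR and from 60.3% to 46.5% between Huh7-IR and Huh7-CR with TMM. With 2 libraries per state, changes of HSPB1, the gene with the largest SE, were the least well measured.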
